A study of Mus musculus with 26 samples.

Results

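The expression and the RNA polymerase II loops of 10 mouse genes that are transcribed downstream of the kinase ERK were measured: the immediate-early genes Egr1 and Fos, the ERK phosphatase genes Dusp4 and Dusp6, the Sprouty and Spred inhibitor genes Spry2, Spry4 and Spred1, and the ETS factor genes Etv1, Etv4 and Etv5. They were picked by symbol, for their known place in the pathway, by a rule that uses no measured value. The choice was made, however, with earlier results of these data known. All 10 had a row among the 52535 rows of the count files that name a gene, and all 10 were among the 17273 genes tested. The series holds 26 samples of a line of mouse embryonic stem cells (ESCs) named E14, either wild type (WT) or knocked out (KO) for Klf4, the gene of a zinc-finger factor that helps keep ESCs naive. RNA-seq was given for 2 KO-labelled and 2 WT-labelled libraries of cultures labelled as neural progenitor cells at day 12 of neural induction. HiChIP of RNA polymerase II, which captures pairs of distant DNA fragments that lie together at sites bound by the polymerase, was given for 2 KO-labelled and 2 WT-labelled samples of the same stage, as 1 list of loops per genotype. In both genotypes the stem cells had been grown with serum, LIF, 1 µM of the MEK inhibitor PD0325901 and 3 µM of the GSK3 inhibitor CHIR99021. Whether the inhibitors were present during the 12 days of induction, and whether the knockout is 1 clone, is not given in the sources used here.

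Growth factors such as FGF4 bind receptor tyrosine kinases, which activate Ras and then the kinases Raf, MEK and ERK in turn. ERK switches on immediate-early genes through ETS factors bound beside the serum response factor SRF, and it raises the transcripts of phosphatases, Sproutys and Spreds that damp the same pathway. In mouse ESCs this route opens the exit from the naive state, and an inhibitor of MEK, the kinase just above ERK, is used to hold cells there, so the transcripts can be read as a gauge of MEK activity. Phosphorylated ERK itself was not measured in the files analysed here.

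The targeted gene was read first. Klf4 had 2571 and 2538 counts in the KO-labelled libraries, against 0 and 0 counts in the WT-labelled libraries, at least 752-fold higher with a floor of 3 counts per WT-labelled library. This is the reverse of the labels, so libraries are called KO-labelled and WT-labelled throughout and each RNA direction is KO-labelled over WT-labelled. Libraries held 29835774 to 37703866 counts in named genes, and replicates correlated at r = 0.990 (KO-labelled) and 0.988 (WT-labelled) over log2 CPM of the genes tested, a correlation across genes. Neural progenitor markers differed in level: Nes had 3236 and 3544 counts in KO-labelled libraries and 2575 and 2029 in WT-labelled ones, Sox1 had 444 and 550 against 106 and 44, Pax6 had 120 and 130 against 6 and 0, and Hes5 had 7 and 4 against 0 and 0.

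Of the 10 genes, 7 had more RNA in KO-labelled than in WT-labelled libraries and 3 had less, at a p below 0.05 after Benjamini-Hochberg adjustment over all genes tested by the quasi-likelihood method of edgeR. The 2 labels differed in 73.1% of all tested genes, with 37.2% called higher and 35.8% called lower, so a call by itself is no rare event. The size of the changes was less common: Egr1, Dusp4, Fos, Dusp6 and Spry4 rose by at least 3 on the log2 scale, a rise that 7.16% of all genes showed. Dusp6 and Spry4 lay close to that cutoff, at 2.913 and 2.805 at the lowest with 1 library left out. The same genes, and no other member, rose by at least 1, as did 22.3% of all genes. The KO-labelled and WT-labelled libraries did not overlap in CPM, counts scaled to library size, in any of the 10 genes, as in 86.3% of all genes. The median log2 fold change was 1.97 over the 10 genes and 0.026 over all genes tested. In bulk RNA, fewer cells that express a gene and less RNA per cell cannot be told apart.

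**Figure D1:**
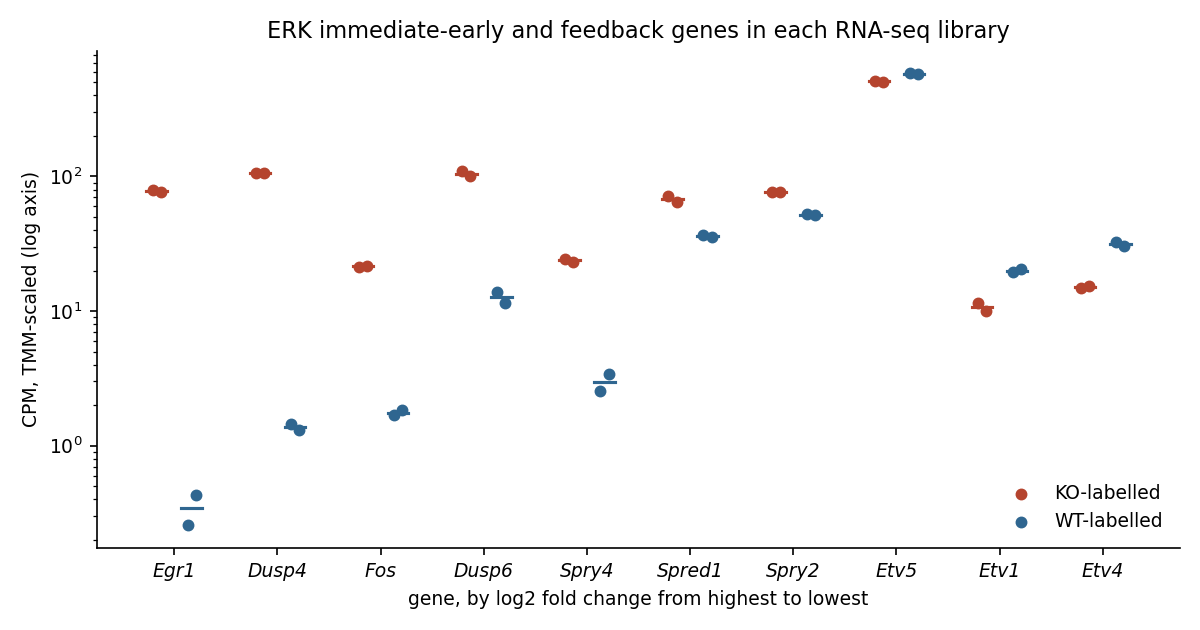
CPM (counts scaled to library size with TMM factors, log axis) of the 10 genes in each RNA-seq library, ordered by log2 fold change, with the KO-labelled libraries left of the WT-labelled ones and 1 point per library. The 2 points of each group lie close together, and the groups stand apart in all 10 genes, with the widest gap in Egr1 (80.0 and 76.8 against 0.256 and 0.434 CPM) and the narrowest in Etv5 (511 and 507 against 584 and 579 CPM).

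Egr1, a zinc-finger factor induced within minutes of ERK activation, had the largest change. It had 2742 and 2754 counts (80.0 and 76.8 CPM) in the KO-labelled libraries, against 9 and 12 counts (0.256 and 0.434 CPM) in the WT-labelled libraries. Both KO-labelled libraries were high and both WT-labelled ones low, where 3 counts make 0.0855 to 0.108 CPM. The log2 fold change was 7.86 ± 0.14 (SE, n = 2 and 2, edgeR adjusted p = 2.53e-24).

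Fos, which pairs with Jun proteins in the AP-1 factor, had 731 and 776 counts (21.3 and 21.6 CPM) in the KO-labelled libraries, against 59 and 51 counts (1.68 and 1.84 CPM) in the WT-labelled libraries. Its replicates were nearly equal within each label and the groups lay far apart. Fos rose by 3.61 ± 0.15 on the log2 scale (SE, edgeR adjusted p = 1.30e-16), a 12.2-fold change.

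The DNA just before the start of transcription is shown for Fos and for Dusp6, an immediate-early and a feedback gene that are both among the strong rises and whose start lay under a loop anchor in both lists. Capitals mark the letters of a searched motif. The Fos stretch, 250 bases at chr12:85473640-85473889 on the plus strand, holds the CRE core TGACG at bases -129 and -66 and the TATA box TATAAA at base -33, counted back from the start site. The serum response element for which Fos is known lies further upstream than this stretch. The Dusp6 stretch, 250 bases at chr10:99262981-99263230 on the plus strand, holds none of the searched motifs. Both are RefSeq sequence of GRCm38.p6, the assembly of mm10, written 5′ to 3′.
Fos: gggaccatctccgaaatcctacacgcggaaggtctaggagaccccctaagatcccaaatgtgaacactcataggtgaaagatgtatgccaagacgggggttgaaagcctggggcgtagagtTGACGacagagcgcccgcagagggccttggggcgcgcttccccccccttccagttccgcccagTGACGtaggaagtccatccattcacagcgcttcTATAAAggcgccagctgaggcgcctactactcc
Dusp6: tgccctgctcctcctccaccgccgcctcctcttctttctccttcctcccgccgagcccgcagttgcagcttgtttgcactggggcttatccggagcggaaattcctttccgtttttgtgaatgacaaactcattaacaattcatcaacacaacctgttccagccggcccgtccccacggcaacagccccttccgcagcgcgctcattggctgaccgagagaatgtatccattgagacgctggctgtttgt

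RefSeq promoter windows of 300 bases, 250 before and 50 after a start site, were matched for 6 of the 10 genes (Fos, Dusp6, Spry2, Spred1, Etv1 and Etv5), with 8 windows in all. The CRE core TGACG stood in 1 of the 6 genes, Fos, and in 20.8% of 32851 windows of all genes, on either strand. TATAAA stood in Fos and in a window of Etv1, and in 13.6% of all windows. The ETS core CCGGAA stood in Spry2, 34 bases past its start, and in 14.9% of all windows. No member window held the CArG box bound by SRF (1.63% of all windows), the AP-1 site TGANTCA (7.81%), the full CRE TGACGTCA (1.79%), which contains the CRE core on both strands, the EGR site GCGNGGGCG (5.55%) or the KLF site GGGNGTGG (17.6%). The member windows had a median of 59.3% G and C, against 52.7% in all windows.

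The ERK phosphatase genes both rose. Dusp4, which encodes a nuclear phosphatase of ERK, had 3654 and 3828 counts (107 and 107 CPM) in the KO-labelled libraries, against 51 and 36 counts (1.45 and 1.30 CPM) in the WT-labelled libraries. The KO-labelled libraries were equally high and the WT-labelled ones low but well above 3 counts. The log2 fold change was 6.26 ± 0.096 (SE, edgeR adjusted p = 1.55e-25), or 76.8-fold. Dusp6, which encodes a cytoplasmic phosphatase specific to ERK, had 3745 and 3626 counts (109 and 101 CPM) in the KO-labelled libraries, against 486 and 319 counts (13.8 and 11.5 CPM) in the WT-labelled libraries. The spread within each label was small beside the gap. Dusp6 rose by 3.04 ± 0.076 on the log2 scale (SE, edgeR adjusted p = 1.73e-20).

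The Sprouty and Spred genes rose by unequal amounts. Spry4 had 838 and 833 counts (24.4 and 23.2 CPM) in the KO-labelled libraries, against 89 and 94 counts (2.54 and 3.40 CPM) in the WT-labelled libraries. Its log2 fold change was 3.02 ± 0.15 (SE, edgeR adjusted p = 1.47e-15), which differed from that of Dusp6 by less than either SE. Spred1, which brings the Ras inactivator neurofibromin to the membrane, had 2455 and 2335 counts (71.6 and 65.1 CPM) in the KO-labelled libraries, against 1300 and 978 counts (37.0 and 35.3 CPM) in the WT-labelled libraries. Every KO-labelled library was above every WT-labelled one, and the log2 fold change was 0.92 ± 0.065 (SE, edgeR adjusted p = 3.02e-12). Spry2 had 2608 and 2754 counts (76.1 and 76.8 CPM) in the KO-labelled libraries, against 1848 and 1420 counts (52.7 and 51.3 CPM) in the WT-labelled libraries. The groups did not overlap here either, but the change was the smallest of the 7 rises, 0.56 ± 0.055 on the log2 scale (SE, edgeR adjusted p = 1.80e-09).

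The ETS factor genes of the PEA3 group, which are transcribed downstream of FGF receptors in many tissues, went the other way. Etv4 had 511 and 555 counts (14.9 and 15.5 CPM) in the KO-labelled libraries, against 1151 and 848 counts (32.8 and 30.6 CPM) in the WT-labelled libraries. It fell by 1.06 ± 0.094 on the log2 scale (SE, edgeR adjusted p = 2.23e-10). Etv1 had 394 and 358 counts (11.5 and 9.99 CPM) in the KO-labelled libraries, against 679 and 569 counts (19.3 and 20.6 CPM) in the WT-labelled libraries. Both KO-labelled libraries were below both WT-labelled ones, and Etv1 fell by 0.89 ± 0.12 on the log2 scale (SE, edgeR adjusted p = 2.24e-07). Etv5, whose product supports ESC self-renewal and the step to the epiblast state, had 17522 and 18168 counts (511 and 507 CPM) in the KO-labelled libraries, against 20484 and 16025 counts (584 and 579 CPM) in the WT-labelled libraries. Its log2 fold change of -0.19 ± 0.026 (SE, edgeR adjusted p = 3.20e-07) depended on the scaling. With library size alone it was 0.018 ± 0.025 (SE, edgeR adjusted p = 0.527), a scaling that moved the median of all genes to 0.236, against 0.026 with TMM factors. Under that scaling 62.0% of the called genes went up, and 50.9% with TMM, while the signs of the other 9 genes were the same under both.

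The genes nearest to some members in level and change were found by the distance between log2 CPM values over the 4 libraries. For Dusp4 they were Kif1a (103 ± 4.31 CPM in KO-labelled and 1.53 ± 0.218 CPM in WT-labelled libraries, SD, n = 2 each, distance 0.233) and Arhgef28 (distance 0.611). For Dusp6 they were Slc39a14 (distance 0.395) and the receptor gene Erbb3 (87.7 ± 2.60 CPM in KO-labelled and 14.3 ± 1.20 CPM in WT-labelled libraries, SD, n = 2 each, distance 0.450). Fos lay nearest to Cacna1h (0.201) and Axl (0.227), and Etv4 to Smyd4 (0.132) and Slc39a11 (0.147). Egr1 had no gene as near: the closest were Pkdcc (1.43) and Fgf5 (1.50). These are likenesses over 2 libraries per label.

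The other genes of the pathway were read from 5 lists. Their counts stand beside the 37.2% of all genes tested that were higher and the 35.8% that were lower. Among immediate-early genes other than Egr1 and Fos, 21 of 24 tested were higher, 2 lower and 1 not called, with a median log2 fold change of 2.32. Egr3 had 222 and 213 counts in KO-labelled libraries and 0 and 0 in WT-labelled ones, at least 64.0-fold higher. Egr2 had 78 and 115 counts against 0 and 0, at least 28.3-fold higher, both bounds using 3 counts per WT-labelled library. Fosl2, another AP-1 subunit, had 1210 and 1278 counts in KO-labelled libraries, against 7 and 23 in WT-labelled ones. Its log2 fold change was 6.20 ± 0.24 (SE, edgeR adjusted p = 1.14e-12), and 5.40 without WT-labelled replicate 1 and 7.44 without WT-labelled replicate 2. Ier5l fell by 1.31 ± 0.068 and Ier3 fell by 0.88 ± 0.12 on the log2 scale (edgeR adjusted p = 6.64e-15 and 8.74e-07). Myc, with 20.7 CPM in KO-labelled and 19.0 CPM in WT-labelled libraries, was the gene not called (log2 fold change 0.12 ± 0.10, edgeR adjusted p = 0.277).

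Among other feedback and target genes of ERK, 16 of 23 tested were higher and 5 lower, with a median log2 fold change of 1.23. Spry1, the third Sprouty gene tested, had 1537 and 1781 counts in KO-labelled libraries, against 95 and 105 in WT-labelled ones. It rose by 3.88 ± 0.13 on the log2 scale (SE, edgeR adjusted p = 1.23e-18), beside 3.02 for Spry4 and 0.56 for Spry2. Phlda1 rose by 3.74 ± 0.26, and Dusp8 by 5.23 ± 0.31 (edgeR adjusted p = 2.65e-12 and 9.65e-14). Dusp8 had 330 and 354 counts in KO-labelled libraries and 5 and 11 in WT-labelled ones, and its change was 4.60 without WT-labelled replicate 1 and 6.05 without WT-labelled replicate 2. The falls with the largest size were in Hmga2 (2.11 ± 0.057), a chromatin protein gene, in Epha4 (1.40 ± 0.042) and in Ccnd1, the cyclin D1 gene (1.30 ± 0.049, log2, SE). Ccnd1 had 74.7 and 85.5 CPM in KO-labelled libraries, against 196 and 200 CPM in WT-labelled ones, with no overlap.

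Upstream of the kinases, 14 of 19 tested growth factor and receptor genes were higher and 2 lower, with a median log2 fold change of 1.29. Fgf5, an FGF ligand of the epiblast, had 1457 and 1611 counts in KO-labelled libraries, against 15 and 7 in WT-labelled ones (log2 fold change 6.95 ± 0.17, SE, edgeR adjusted p = 1.84e-21). Fgf8 had 336 and 445 counts against 2 and 0, a count ratio of 350 with a counting interval of 96.4 to 2891. Its fitted log2 fold change of 8.29 ± 0.42 was 7.51 without WT-labelled replicate 2 and 11.5 without WT-labelled replicate 1, where the remaining WT-labelled library was at 0 and the value is no bound. Fgfr3 had 136 and 147 counts in KO-labelled libraries, against 2 and 19 in WT-labelled ones, and the unequal WT-labelled pair moved its log2 fold change of 3.54 ± 0.55 to 2.54 without WT-labelled replicate 1 and 6.05 without WT-labelled replicate 2. Fgf4, the ligand that ESCs make, fell by 0.42 ± 0.033 on the log2 scale, and the receptor gene Kit fell by 2.39 ± 0.042 (edgeR adjusted p = 1.74e-11 and 1.12e-23). The receptor gene Fgfr1 was not called, with 150 CPM in KO-labelled and 152 CPM in WT-labelled libraries (edgeR adjusted p = 0.732).

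The genes of the cascade itself were split, with 10 of 24 higher and 12 lower, beside 37.2% and 35.8% of all genes tested. Their median log2 fold change was -0.043. With library size alone they were 12 higher and 9 lower with a median of 0.17, and with upper-quartile factors 12 higher and 11 lower with a median of 0.043. Mapk3, which encodes ERK1, had 136 and 132 CPM in KO-labelled libraries, against 64.7 and 66.5 CPM in WT-labelled ones, a log2 fold change of 1.03 ± 0.045 (SE, edgeR adjusted p = 2.14e-16). Sos2, an activator of Ras, rose by 1.92 ± 0.14, and Nf1, which inactivates it, by 0.59 ± 0.068 (edgeR adjusted p = 5.44e-12 and 2.56e-08). The adaptor gene Grb2 fell by 1.27 ± 0.053, Rasgrp1 fell by 0.93 ± 0.12, and Mapk7, the gene of ERK5, fell by 0.76 ± 0.050 (log2, SE). ETS and SRF partner factors were split as well, with 5 of 13 tested higher, 5 lower and a median of 0.12, near the shares over all genes. With library size alone these factors were 7 higher and 4 lower. Srf had 115 and 112 CPM in KO-labelled libraries and 60.8 and 57.0 CPM in WT-labelled ones (log2 fold change 0.94 ± 0.050, SE, edgeR adjusted p = 1.00e-14), and its cofactor gene Mkl2 rose by 0.93 ± 0.088. Ets1 rose by 3.34 ± 0.13, whereas Gabpa fell by 1.54 ± 0.033, Etv2 fell by 1.29 ± 0.34 and the ETS repressor gene Erf fell by 1.12 ± 0.043 (log2, SE).

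**Figure D2:**
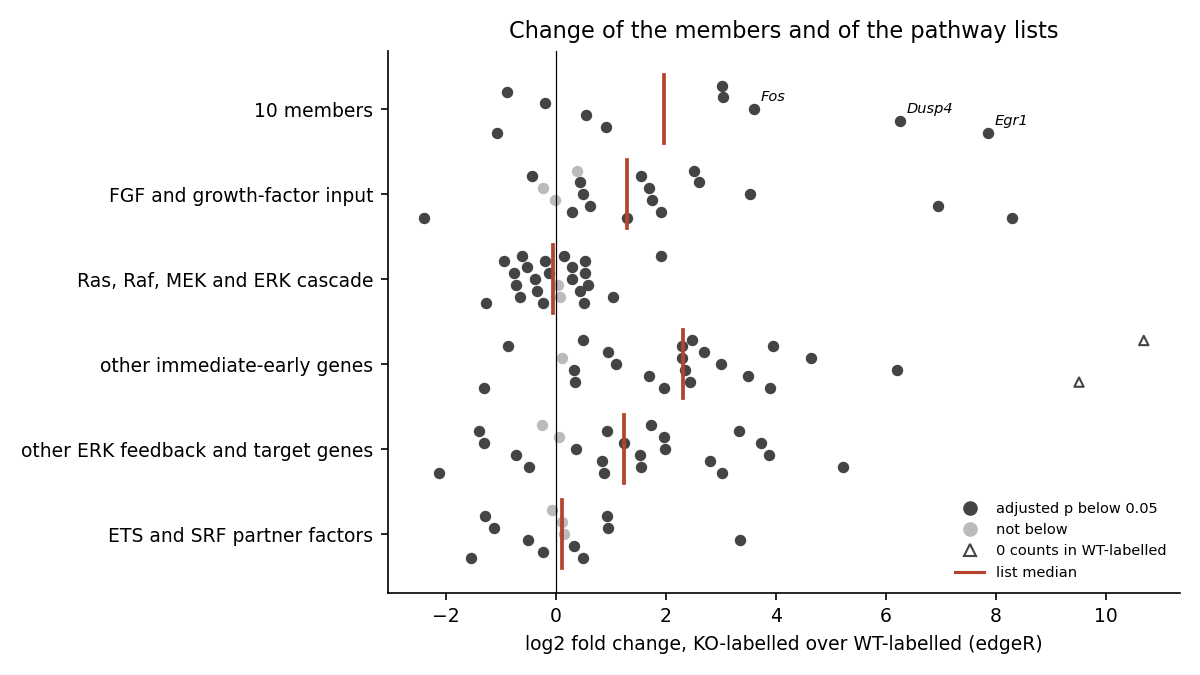
Log2 fold changes, KO-labelled over WT-labelled, of the 10 genes and of the genes tested in each pathway list, 1 point per gene, dark where the edgeR adjusted p was below 0.05, with triangles for genes at 0 counts in both WT-labelled libraries and a vertical bar at the list median. Immediate-early genes lie mostly right of 0 (median 2.32), while the cascade genes are spread around 0 (median -0.043, turning to 0.17 with library size alone and 0.043 with upper-quartile factors).

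Markers of other states and cell types moved with the labels too, where 37.2% of all genes tested were higher and 35.8% lower. Of 10 naive pluripotency markers, 9 were lower and 1 higher, summing to 2229 to 2275 CPM in KO-labelled libraries, against 5108 to 5147 CPM in WT-labelled ones. Of 8 primed epiblast markers, 7 were higher and 1 lower, at 707 to 710 CPM in all against 297 to 303 CPM. Fibroblast and matrix markers were higher in 6 of 6 tested, at 286 to 296 CPM in all against 5.16 to 5.42 CPM. Bgn, Lum, Dcn and Postn were at 0 in both WT-labelled libraries. Lum (1 and 5 counts) and Dcn (12 and 2 counts) were also low in KO-labelled libraries and were not tested. Mesoderm and muscle markers were higher in 7 of 8, at 202 to 211 CPM in all against 10.2 to 10.3 CPM, with Mesp1 and Actc1 at 0 in both WT-labelled libraries. The actin gene Acta2 made 152 and 148 CPM of this sum in KO-labelled and 0.0285 and 0 CPM in WT-labelled libraries. Endoderm markers were higher in 5 of 5 tested, at 43.7 to 43.9 CPM in all against 2.06 to 2.11 CPM. Afp, with 0 and 1 counts in KO-labelled and 0 and 0 in WT-labelled libraries, was not tested. Neural progenitor markers were higher in 6 of 6 tested, at 116 to 123 CPM in all against 75.0 to 76.9 CPM. Of this sum Nes made 94.4 and 98.9 CPM in KO-labelled and 73.4 and 73.3 CPM in WT-labelled libraries. Hes5 and Fabp7 were at 0 in both WT-labelled libraries, and Hes5, with 7 and 4 counts in KO-labelled ones, was not tested. Dissociation and heat stress genes summed to 520 to 528 CPM in KO-labelled libraries, against 830 to 848 CPM in WT-labelled ones, with 4 of 8 higher and 2 lower. The small heat shock protein gene Hspb1 made 297 and 297 CPM of this in KO-labelled and 654 and 641 CPM in WT-labelled libraries, and the other 7 genes summed to 224 to 231 CPM in KO-labelled libraries, against 188 to 194 CPM in WT-labelled ones. Among them the immediate-early gene Atf3 was 15.4-fold higher, and the heat shock genes Hspa1a and Hspa1b were 2.95-fold and 2.43-fold higher. Dnajb1 was only 1.145-fold higher, Gadd45b was lower (log2 fold change -0.388), and Ddit3 and Ppp1r15a were not called. The part of these markers in the rise of the 10 genes was not tested.

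The polymerase II loops at the 10 genes came from 1 pooled list per genotype, so there is no replicate and no test, and the exact 95% intervals below cover counting error only. The KO-labelled list held 489409 loops with 977208 tags on anchors covering 173 Mb, and the WT-labelled list 143451 loops with 407150 tags on anchors covering 92.5 Mb. A tag is 1 paired-end read that joins both anchors. Loops were kept at the authors' false discovery rate of at most 0.01 and at least 2 tags, and a loop belonged to a gene where an anchor lay within 2500 bases of it. In kept loops Klf4 itself had 4 tags in the KO-labelled list and 32, all in 1 loop, in the WT-labelled list. This is the direction of the labels, whereas its RNA went against them, but tags of 1 list per label do not establish a genotype. Over all loops Klf4 had 33 tags (3.38 per 100000) in the KO-labelled list and 41 (10.1 per 100000) in the WT-labelled list, a 2.98-fold higher share in the WT-labelled list, against 19.2-fold over kept loops. Its intervals did not overlap. The same held, higher in the WT-labelled list, for 19.3% of protein-coding genes with a tag in kept loops and 24.8% over all loops.

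In kept loops, the 10 genes held 713 tags in 116 loops of the KO-labelled list and 434 tags in 51 loops of the WT-labelled list, or 73.0 and 107 tags per 100000 tags of each list. Kept loops held 29.3% of all tags in the KO-labelled list and 43.0% in the WT-labelled list. Over protein-coding genes with kept tags in both lists, the median ratio of shares, KO-labelled over WT-labelled, was 0.740. The tag share was higher in the KO-labelled list for 7 of the 10 genes, as for 59.5% of protein-coding genes with a tag. The intervals did not overlap for Egr1, Spry4, Spred1 and Fos, which were higher in the KO-labelled list (21.2% of such genes were), nor for Etv5 and Spry2, which were lower (19.3%). Over all loops, an alternative chosen after the data were seen, 6 genes had a higher share in the KO-labelled list (53.7% of such genes did). Dusp4 and Dusp6 joined the genes whose intervals were higher in the KO-labelled list (29.6% of such genes were), and Etv5 alone was lower (24.8%). Etv5 weighed on the sums, since it carried 17.7% of the members' kept tags in the KO-labelled list and 81.1% in the WT-labelled list. Without it the other 9 genes held 60.1 tags per 100000 in the KO-labelled list and 20.1 in the WT-labelled list.

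**Figure D3:**
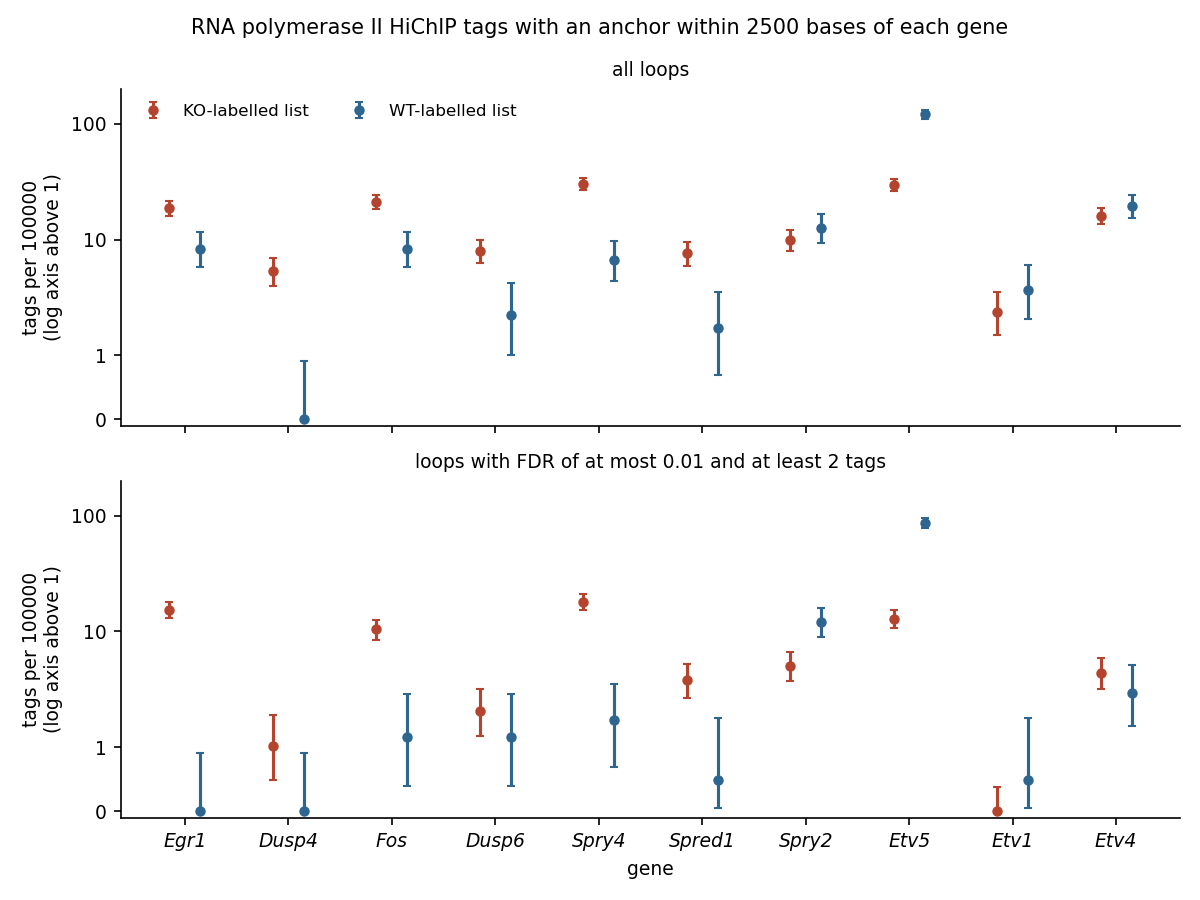
HiChIP tags with an anchor within 2500 bases of each gene, per 100000 tags of its list, with exact binomial 95% intervals, for all loops and for kept loops, the KO-labelled list left of the WT-labelled list (log axis above 1). In kept loops Egr1 had 15.3 in the KO-labelled list and 0 in the WT-labelled list, while Etv5 had 12.9 and 86.5.

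At Egr1 (mm10, chromosome 18, 34861207 to 34864956), 20 kept loops with 150 tags were found in the KO-labelled list and none in the WT-labelled list. The tag share was 15.3 per 100000 (interval 13.0 to 18.0) against 0, at least 20.8-fold higher with a floor of 3 tags for the WT-labelled list. With all loops it was 18.7 per 100000 (183 tags) in the KO-labelled list and 8.35 (34 tags) in the WT-labelled list, so loops under the thresholds were present in the WT-labelled list. The strongest loop held 41 tags, spanned 11.0 kb and ended at Reep2. A loop with 25 tags spanned 26.1 kb and ended at no named gene. A loop with 15 tags spanned 19.5 kb and ended at both Reep2 and Kdm3b, a histone demethylase gene. With these 15 tags, Kdm3b had 25 tags in 2 loops of the KO-labelled list and 0 tags in the WT-labelled list. Another anchor lay at Etf1, which encodes a translation release factor (10 tags in the KO-labelled list and 0 in the WT-labelled list). Reep2 RNA was higher in KO-labelled libraries (7.66 ± 0.969 CPM, against 2.10 ± 0.664 CPM in WT-labelled ones, SD, n = 2 each), while Kdm3b RNA was lower (153 ± 4.97 against 208 ± 2.61 CPM) and so was Etf1 RNA (300.4 ± 1.04 against 623 ± 8.56 CPM), all 3 with edgeR adjusted p of 1.02e-07 or less.

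Fos (chromosome 12, 85473890 to 85477274) had 15 kept loops with 102 tags in the KO-labelled list, 10.4 per 100000 (interval 8.51 to 12.7), and 2 kept loops with 5 tags in the WT-labelled list, 1.23 per 100000 (interval 0.399 to 2.87). Its strongest loops in the KO-labelled list held 25 and 22 tags, spanned 17.8 and 8.79 kb and ended at no named gene. In the WT-labelled list a 3-tag loop ran 202 kb to Mlh3 and its neighbours. A 2-tag loop, below the floor of 3 tags, ran 1016 kb to Esrrb, a naive pluripotency gene. Among the partner genes in the KO-labelled list, Tmed10 had 9 tags and Pgf, a VEGF-family ligand gene, had 8, both with 0 in the WT-labelled list.

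Both ERK phosphatase genes had few tags. Dusp6 (chromosome 10, 99263231 to 99267489) had 3 kept loops with 20 tags in the KO-labelled list, 2.05 per 100000 (interval 1.25 to 3.16), and 1 kept loop with 5 tags in the WT-labelled list, 1.23 per 100000 (interval 0.399 to 2.87). These intervals overlapped. Over all loops the shares were 7.88 (77 tags) in the KO-labelled list and 2.21 (9 tags) in the WT-labelled list, with intervals apart. Dusp4 (chromosome 8, 34807610 to 34819894) had 5 kept loops of 2 tags each in the KO-labelled list, from 242 to 621 kb long, and none in the WT-labelled list. Over all loops it had 52 tags in the KO-labelled list and 0 in the WT-labelled list, at least 7.22-fold higher with a floor of 3 tags, and no anchor was called at it in the WT-labelled list.

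The 3 inhibitor genes differed. Spry4 (chromosome 18, 38586247 to 38601347) had the most tags of any member in the KO-labelled list, 176 in 28 kept loops or 18.0 per 100000 (interval 15.4 to 20.9), against 7 in 3 kept loops or 1.72 (interval 0.691 to 3.54) in the WT-labelled list. Of its tags in the KO-labelled list, 111 in 12 loops led to Arhgap26, which had 0 tags in the WT-labelled list. Arhgap26 RNA was 10.6 ± 0.774 CPM in KO-labelled and 9.37 ± 0.845 CPM in WT-labelled libraries (SD, n = 2 each, edgeR adjusted p = 0.268). The anchors of 3 of these loops, with 13 of these tags and with 0 in the WT-labelled list, also reached the ligand gene Fgf1, whose RNA was 1.76 ± 0.278 CPM in KO-labelled and 0.0285 ± 0.0403 CPM in WT-labelled libraries, below 3 counts per library there. Spred1 (chromosome 2, 117121071 to 117182279) had 37 tags in 5 kept loops of the KO-labelled list, 3.79 per 100000 (interval 2.67 to 5.22), against 2 tags in 1 kept loop of the WT-labelled list, 0.491 (interval 0.0595 to 1.77). Its strongest loop in the KO-labelled list held 24 tags over 146 kb, and both lists held a loop to the homeobox gene Meis2, of 1052 kb in the KO-labelled list and 1058 kb in the WT-labelled list (7 tags in all in the KO-labelled list and 2 in the WT-labelled list). Spry2 (chromosome 14, 105891947 to 105896819) had 49 kept tags in each list, or 5.01 per 100000 (interval 3.71 to 6.63) in the KO-labelled list and 12.0 (interval 8.90 to 15.9) in the WT-labelled list. In the KO-labelled list they were spread over 12 loops of at most 11 tags, whereas in the WT-labelled list 41 of them lay in 1 loop of 36.1 kb.

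Etv5 (chromosome 16, 22381313 to 22439570) stood out in the WT-labelled list. It had 126 tags in 16 kept loops of the KO-labelled list, 12.9 per 100000 (interval 10.7 to 15.4), against 352 tags in 34 kept loops of the WT-labelled list, 86.5 per 100000 (interval 77.7 to 96.0), a 6.71-fold excess in the WT-labelled list. The strongest loops in the KO-labelled list held 22 tags to Dgkg, a diacylglycerol kinase gene, over 72.4 kb and 19 tags over 10.7 kb. In the WT-labelled list 3 short loops held 64, 56 and 53 tags over 19.7, 30.8 and 14.3 kb, and a loop to Dgkg held 35 tags over 139 kb. In all, Dgkg had 64 tags in the KO-labelled list and 51 in the WT-labelled list. Eif4a2, an RNA helicase gene of translation initiation, had 2 and 31, and Rfc4 had 0 and 33. The 31 tags of Eif4a2 in the WT-labelled list lay in 4 loops whose anchor also reached Rfc4, so they are among its 33. Counted only within 2500 bases of the start site, Etv5 had 109 kept tags in the KO-labelled list and 88 in the WT-labelled list. The difference in tag share, KO-labelled minus WT-labelled, was then -10.5 per 100000, and -73.6 over the whole gene.

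**Figure D4:**
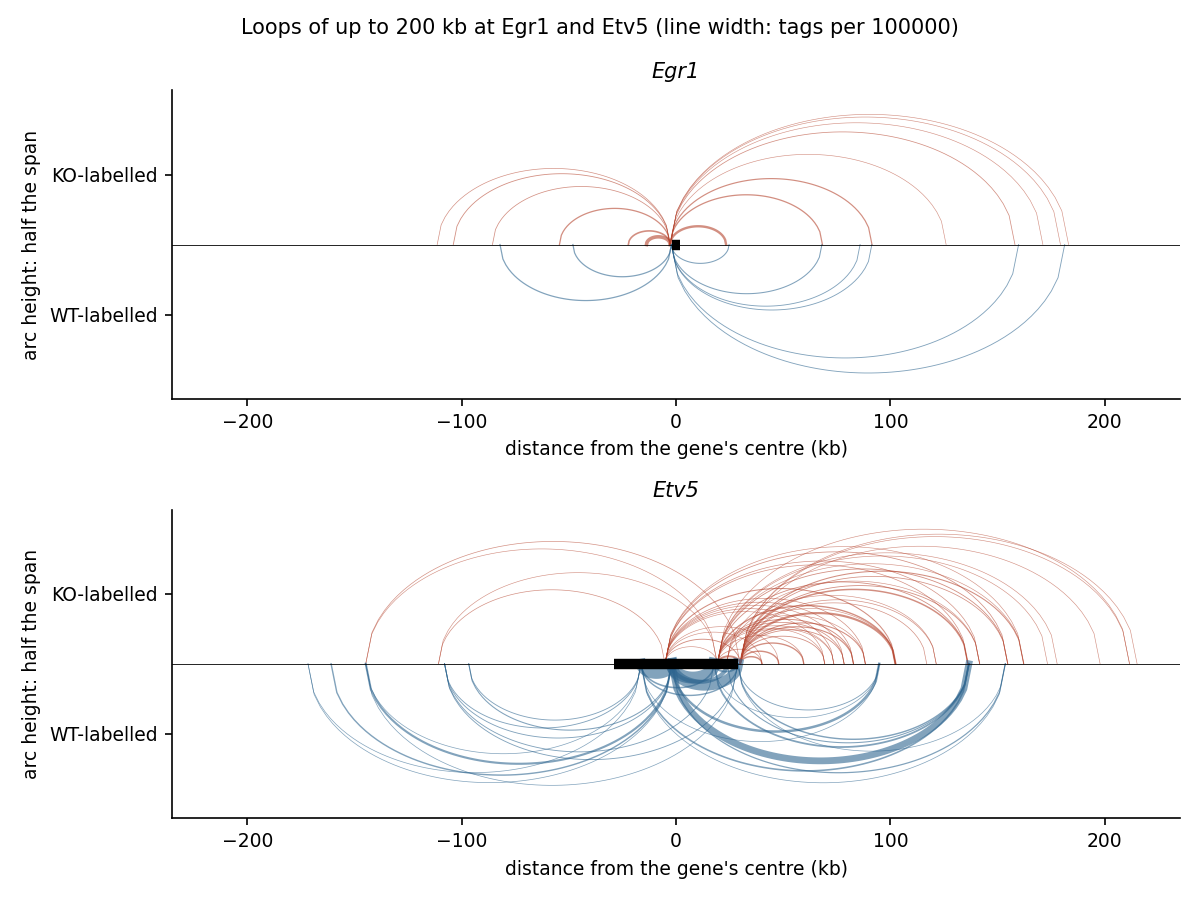
All loops of up to 200 kb at Egr1 and Etv5, whatever their tag count and false discovery rate, drawn as arcs between anchor centres by distance from the gene's centre (kb), above the line for the KO-labelled list and below it for the WT-labelled list, with line width by tags per 100000 of the list and the gene as a black bar. At Egr1 the widest arcs are short ones above the line (41 tags over 11.0 kb) and the arcs below it hold at most 4 tags, and Etv5 has its widest arcs below the line, the strongest with 64 tags over 19.7 kb.

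Etv4 and Etv1 had low tag shares whose intervals overlapped. Etv4 (chromosome 11, 101769747 to 101785310) had 43 tags in 12 kept loops of the KO-labelled list, 4.40 per 100000 (interval 3.18 to 5.93), against 12 tags in 5 kept loops of the WT-labelled list, 2.95 (interval 1.52 to 5.15). Over all loops the order turned, with 16.1 in the KO-labelled list and 19.4 in the WT-labelled list. Both lists joined Etv4 to Brca1 and Nbr1, with 2 tags in the KO-labelled list and 3 in the WT-labelled list. Etv1 (chromosome 12, 38780082 to 38870483) had no kept loop in the KO-labelled list and 1 loop of 2 tags over 310 kb in the WT-labelled list, which is below the floor of 3 tags. Over all loops it had 23 tags in the KO-labelled list (2.35 per 100000) and 15 in the WT-labelled list (3.68 per 100000).

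Loops common to both lists were counted next. With both anchors overlapping by at least 1 base, 7 of the 116 kept loops in the KO-labelled list (6.03%) and 7 of the 51 in the WT-labelled list (13.7%) had a partner among the kept loops of the other list. Over all kept loops the shares were 4.83% of 57463 in the KO-labelled list and 11.8% of 22148 in the WT-labelled list, close to those of the 10 genes. The shared loops lay at Spry2, Spry4, Spred1, Etv4 and Etv5. Against any loop of the other list, kept or not, 32 of 116 (27.6%) in the KO-labelled list and 17 of 51 (33.3%) in the WT-labelled list had a partner, against 13.5% and 28.6% over all kept loops of each list.

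Anchors were called in each list separately, and their length moved with the tag shares. At Egr1 they covered 13.6 kb in the KO-labelled list and 3.95 kb in the WT-labelled list, at Fos 10.7 and 2.92 kb, and at Etv5 15.7 and 40.4 kb. Per kb of anchor, with all loops, Egr1 had 1.37 tags per 100000 in the KO-labelled list and 2.11 in the WT-labelled list, the reverse of its total. Fos turned likewise (1.99 against 2.86), and so did Spry2 in the other direction (1.03 against 0.940), whereas Etv5 was again lower in the KO-labelled list (1.88 against 3.01). Of 9 genes with tags in both lists, 6 had the same direction per kb as in total. How far anchor length sets the tag shares was not tested.

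RNA and loops were set side by side for the 10 genes. With kept loops, the sign of the RNA change and of the difference in tag share was the same in 8 of 10 genes, against 60.0% of 10911 protein-coding genes with RNA tested and a kept tag. Of the 8761 such genes called in RNA, as all 10 members were, 61.6% had the same sign. The 2 genes with opposite signs were Spry2, higher in RNA with a lower tag share, and Etv4, lower in RNA with a higher tag share. With all loops the sign was the same in 9 of 10 genes, with Spry2 the exception, against 62.7% of 12863 genes and 65.2% of the 10262 called in RNA. Egr1, Dusp4, Dusp6, Spry4, Spred1 and Fos were higher in both measures with both loop sets. Per kb of anchor, however, Egr1 and Fos were lower in the KO-labelled list, and the kept-loop intervals of Dusp4 and Dusp6 overlapped between lists. Etv1 had 0 kept tags in the KO-labelled list and 2 in the WT-labelled list, below the floor of 3 tags. The intervals of Etv1 and Etv4 overlapped with both loop sets. The log2 fold change of Etv5 RNA turned to 0.018 with library size alone. Since RNA and loops come from different samples, and Klf4 RNA goes against the labels while its loop tags do not, these signs hold for the labels and not for a genotype.

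**Figure D5:**
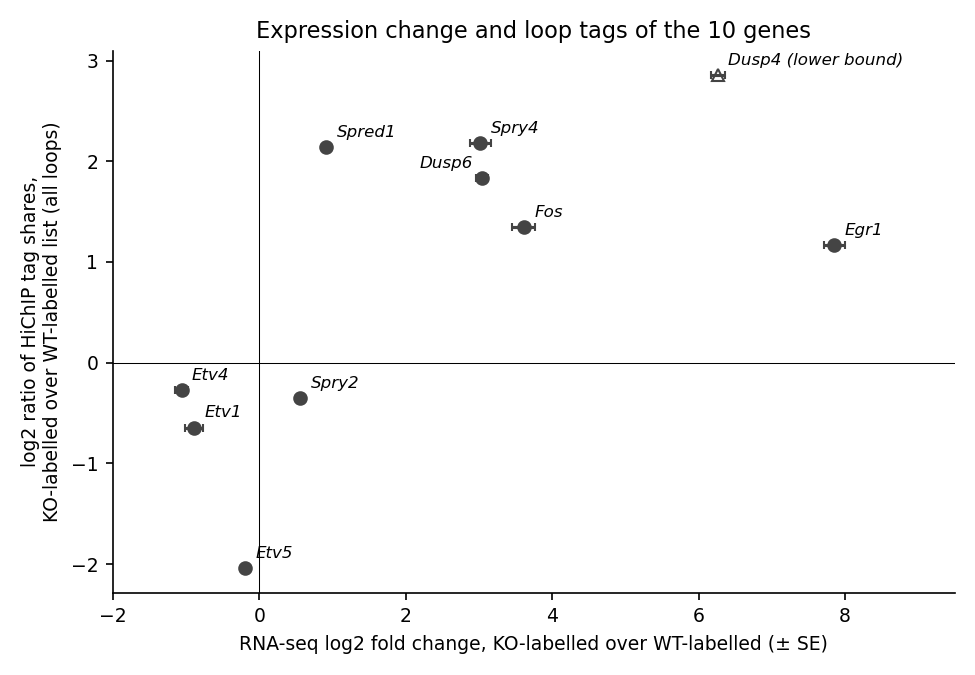
RNA-seq log2 fold change (x axis, with SE, KO-labelled over WT-labelled) and log2 ratio of HiChIP tag shares over all loops (y axis, KO-labelled over WT-labelled list) of the 10 genes, with Dusp4 drawn at its lower bound since it had 0 tags in the WT-labelled list. Of the 10 genes, 9 lie in the quadrants where both values have the same sign, and Spry2 lies outside them. The intervals of tag share of Etv1, Etv4 and Spry2 overlapped between lists.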

How the data were processed

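The authors deposited RNA-seq as unnormalized counts for each gene symbol. The submitters' processing notes name mm10, HISAT2 2.1.0, featureCounts 2.0.3, DESeq2 1.18.1, MACS2 2.2.7.1, HiC-Pro 2.11.1 and Bowtie2 2.4.4. The loop caller and the annotation and strand setting of the counts were not stated there, so a gene's reads may include those of an overlapping or antisense partner. The 5 rows naming no gene (20.4% to 22.5% of column totals) were left out. Counts were filtered (filterByExpr), scaled by TMM, and compared in R 4.3.3 by edgeR 4.0.16 (robust quasi-likelihood, two-sided, Benjamini-Hochberg over 17273 genes). A check on simulated data changed few genes, with equal numbers of rises and falls, so it could not test the scaling used here. The SE of a log2 fold change is its size over the root of its F statistic. CPM use TMM-scaled library sizes. Without transcript lengths, levels of different genes were not compared. Each condition has 2 biological replicates, per the labels' design text.

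Deposited loop lists give tag counts and a false discovery rate (q-value) per loop, both the authors' values, with replicates pooled. Gene positions and promoters came from RefSeq (GRCm38.p6). Intervals are Clopper-Pearson 95%. Named besides the 10 genes and Klf4 were the 3 called genes with the largest rise and fall in each list, some named after their values were seen (Myc, Fgfr1), the 2 nearest genes of 5 members, and the partner genes with the most tags. Esrrb was not among those partners and was named from a loop of 2 tags at Fos. The members and lists were chosen with earlier results of these data known. Alternatives covered scaling, filter, DESeq2 1.42.0, a replicate block, each library left out, and loop windows and thresholds. ChIP-seq samples of ESCs and protein sequences were not analysed here.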

Additional observations from a re-analysis of the deposited data

How the results depend on the processing

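The fold changes of the 10 genes kept their direction and call under the 11 alternatives for RNA, except that of Etv5, and the counts of called genes and of shared loops stayed within 1.5 times. Etv5 turned to 0.018 with library size alone (edgeR adjusted p = 0.527), a scaling that moved the median of all genes to 0.236. Around the start site only, 6 genes could be placed, and all 6 kept their direction of tag share; 3 of them were higher in the KO-labelled list, against 7 of 10 with the whole gene, a count over fewer genes. Without the filter on low counts, the median log2 fold change of ETS and SRF partner factors was -0.07, against 0.12 with it. That of the cascade genes was -0.043, but 0.043 with upper-quartile factors, 0.17 with library size alone and 0.0022 without KO-labelled replicate 2; these genes were 12 higher and 11 lower, 12 and 9, and 10 and 11 there, against 10 and 12. With upper-quartile factors the ETS and SRF partners were 7 higher and 5 lower. With the replicate block the log2 fold change of Egr1 was 7.86, and 7 members were higher and 3 lower, as without it; the numbers are not stated to pair samples, and same-numbered deviations correlated at 0.0153. Leaving out each library in turn gave 7.48 to 8.22 for Egr1 and -0.21 to -0.19 for Etv5, and left all 10 calls in place. For single genes, the direction of the tag share changed for Etv4 with all loops, and was lost at 0 for Dusp4 and Etv1 with at least 3 tags and for Etv1 at a false discovery rate of at most 0.001. Arhgap26, a loop partner of Spry4, passed the test only with library size alone. The loops rest on 1 list per genotype, and WT-labelled counts of at most 23 limit the size of the rises in Egr1, Fgf5, Fgf8, Fgfr3, Fosl2 and Dusp8.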
